A study of Homo sapiens with 12 samples.

Results

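The long noncoding RNA SLERT begins with the box H/ACA small nucleolar RNA SNORA5C and ends with another, SNORA5A. Their nucleotides were chosen by position in the deposited SLERT tables: U1 to G137 for SNORA5C and U561 to A694 for SNORA5A, 271 nucleotides in all beside 423 of the middle of SLERT. The first 20 and the last 20 nucleotides carried almost no mutations, which left 231 readable nucleotides, 117 in SNORA5C and 114 in SNORA5A. SLERT was probed by SHAPE-MaP, which reads RNA flexibility as mutations in cDNA, in PA1, an established human ovarian teratocarcinoma cell line. Each of 3 conditions had 2 libraries. Cells received NAI, which acylates the 2′-hydroxyl of flexible nucleotides, at 200 mM and 37 °C for 10 minutes, or the solvent DMSO alone. The denatured control (DC) was RNA heated to 95 °C in formamide, and whether NAI followed is not given in the sources used here. All 6 libraries were reverse transcribed with 6 mM Mn2+, the condition under which the enzyme reads through an adduct and leaves a mutation. All groups share the one cell line, and nothing in the labels says whether replicates were separate cultures.

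Box H/ACA snoRNAs guide the conversion of uridine to pseudouridine in ribosomal and spliceosomal RNA. Each folds into a 5′ hairpin and a 3′ hairpin joined by a single-stranded hinge that holds the H box, and ends in a short tail after the ACA box. An internal loop in a hairpin, the pseudouridylation pocket, pairs with the target RNA, and the boxes are needed to assemble the snoRNP, whose proteins include the pseudouridine synthase dyskerin. In SLERT a snoRNA of this family caps each end of the RNA.

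The sequences of both ends are shown because every result below is placed on them. They are the bases of the deposited tables, 5′ to 3′, with the H box (ANANNA, N any base) and the ACA box in capitals.
SNORA5C: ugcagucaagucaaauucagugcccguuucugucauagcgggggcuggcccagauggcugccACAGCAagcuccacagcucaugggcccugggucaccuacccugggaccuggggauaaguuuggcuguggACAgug
SNORA5A: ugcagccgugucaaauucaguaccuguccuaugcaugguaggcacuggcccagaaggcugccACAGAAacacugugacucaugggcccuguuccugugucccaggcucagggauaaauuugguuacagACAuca
Their lengths equal those of the RefSeq genes SNORA5C and SNORA5A, both within the span of the host gene TBRG4. The genome build of the tables is not given in the sources used here, so positions are numbered from the 5′ end of SLERT. Mature SNORA5C and SNORA5A have the same sequences as these ends, and whether any reads came from them was not tested.

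The features followed from sequence alone. In SNORA5C the 5′ hairpin spans nucleotides 1 to 62, the H box 63 to 68, the 3′ hairpin 69 to 131 and the ACA box A132 to A134. In SNORA5A they span U561 to C622, A623 to A628, A629 to G688 and A689 to A691. Each ACA box lies 3 nucleotides from the end of its snoRNA. The ACA box and tail of SNORA5A fall in the unreadable stretch, so those of SNORA5C are the ones described. RNAfold paired each hairpin on its own into a stem with internal loops on the way to an apical loop, with 20 and 21 pairs in the hairpins of SNORA5C and 19 and 17 in those of SNORA5A. Folding each snoRNA whole, with its boxes held unpaired, gave the same 41 and 36 pairs. These pairs are a prediction and used no reactivity.

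In the readable ends the mutation rate was 0.986% ± 0.0020 (SD, n = 2) with NAI, 0.638% ± 0.019 with DMSO and 0.830% ± 0.011 in DC. NAI exceeded DMSO 1.51-fold in replicate 1 and 1.58-fold in replicate 2, and DC exceeded DMSO 1.29-fold and 1.32-fold. The 3 conditions did not overlap. An exact two-sided test of 2 libraries against 2 gives p = 0.33 at the least, and these rates were therefore compared without one. Median effective depth per readable nucleotide of the ends ranged from 158170 to 771260 reads over the 6 libraries, at which 3 mutations are a rate of at most 0.0019%. It was 567174 to 771260 in the libraries of replicate 1 and 158170 to 189316 in those of replicate 2. In the terminal stretches no rate passed 0.0516% in any library.

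Reactivity in cells is given as the authors' normalised reactivity, the excess of the NAI rate over the DMSO rate, as a share of the DC rate and times 1 constant per replicate. A nucleotide is called reactive here when its value was over 0.85 in both replicates and unreactive when it was under 0.4 in both. Of the 231 readable nucleotides of the ends, 37 were reactive and 155 unreactive, against 98 and 399 of the 654 readable nucleotides of SLERT. Across the 231 nucleotides Pearson's r of replicate 1 with replicate 2 was 0.977 and Spearman's rho 0.814; the nucleotides share their libraries and are not independent. The profile along both snoRNAs shows runs of values near 0 that mostly follow the predicted stems, broken by a few nucleotides far above them. Of 44 readable nucleotides in predicted internal loops, 11 were reactive and 18 unreactive, among them U651, U652, C666 and U667 of SNORA5A.

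**Figure D1:**
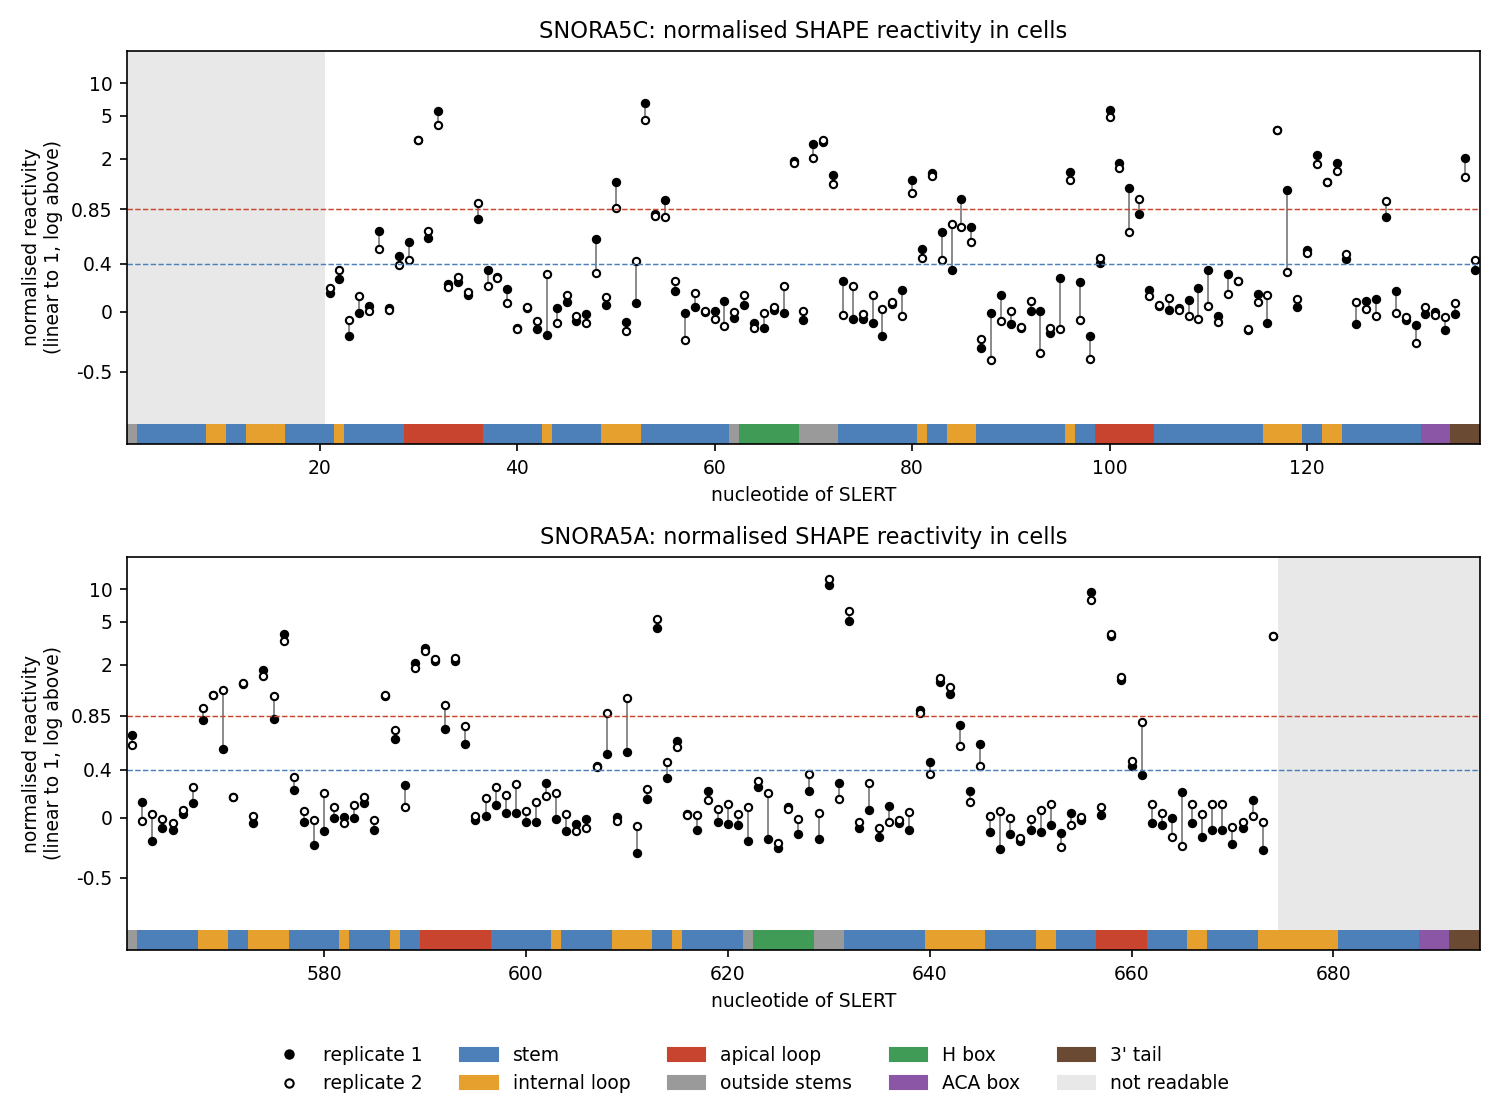
Normalised reactivity (linear up to 1, logarithmic above) at each readable nucleotide of SNORA5C (top) and SNORA5A (bottom), replicate 1 filled and replicate 2 open, joined by a line; the coloured strip gives the predicted element, grey areas could not be read, and dashed lines mark 0.4 and 0.85. Most stem nucleotides lie under 0.4, and the highest values stand at C630 (11.0 and 12.3) and G656 (9.47 and 7.99) of SNORA5A.

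NAI against DMSO asks which nucleotides of the ends were modified in cells. Mutation rates of 93 nucleotides of the ends rose and those of 6 fell with NAI (edgeR's quasi-likelihood test at an adjusted p under 0.05, Benjamini-Hochberg over 693 nucleotides), against a background of 44.9% higher and 3.32% lower over all SLERT nucleotides tested. SNORA5C held 51 of the higher nucleotides and SNORA5A 42. The median log2 change of the readable ends was 0.11, and that of readable SLERT 0.24. TMM scaling, which centres the changes on those of most nucleotides, moved these medians to -0.21 and -0.08 and the counts in the ends to 66 higher and 88 lower. Of the 93 higher calls 90 were readable, and of the 6 lower calls 5 were. They became 3 without NAI replicate 2 and 1 without DMSO replicate 1.

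Most of the rises lay at unpaired nucleotides. The hairpins had 80 readable unpaired nucleotides, in loops or at the foot of the stems. Of these 54 were higher with NAI and 0 lower by edgeR (also 0 lower by DESeq2 and at an unadjusted p under 0.05), and of 133 stem nucleotides 31 were higher and 4 lower. Nucleotides of one RNA are not replicates, so the classes were not tested against each other. With TMM scaling the unpaired nucleotides had 41 higher and 17 lower calls and the stems 20 higher and 60 lower. The median log2 change was 0.60 in the unpaired nucleotides and 0.04 in the stems. Median normalised reactivity of the unpaired nucleotides was 0.598 in replicate 1 and 0.592 in replicate 2, with 24 reactive and 30 unreactive. That of the stems was 0.0303 and 0.0445, with 11 reactive and 110 unreactive, and the median over readable SLERT was 0.191 and 0.210. The same order held in each snoRNA: 0.639 ± 0.027 (SD, n = 2) unpaired and 0.0416 ± 0.032 in stems for SNORA5C, and 0.575 ± 0.024 and 0.0213 ± 0.051 for SNORA5A.

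Among the loops, the apical loops that close the hairpins had the higher median, 0.676 and 0.779 in the 2 replicates, and 22 of their 26 nucleotides were higher with NAI. The internal loops, which include the predicted loops taken here as pockets, had medians of 0.535 and 0.438, with 27 of 44 higher. Within the stems, which were split only after their values were seen, the helices of 2 pairs had higher values than the longer ones. Their 18 nucleotides had medians of 0.419 and 0.446, with 10 called higher, and the 76 nucleotides inside longer helices had medians of -0.0201 and 0.0086, with 7 called higher. The 39 nucleotides at the ends of longer helices lay between, with medians of 0.131 and 0.0912 and 14 called higher. By base, the unpaired U (24 nucleotides, median 0.763 ± 0.073) and G (14, 0.725 ± 0.013) had the higher medians, C (22) had 0.454 ± 0.0095 and A (20) 0.176 ± 0.037.

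**Figure D2:**
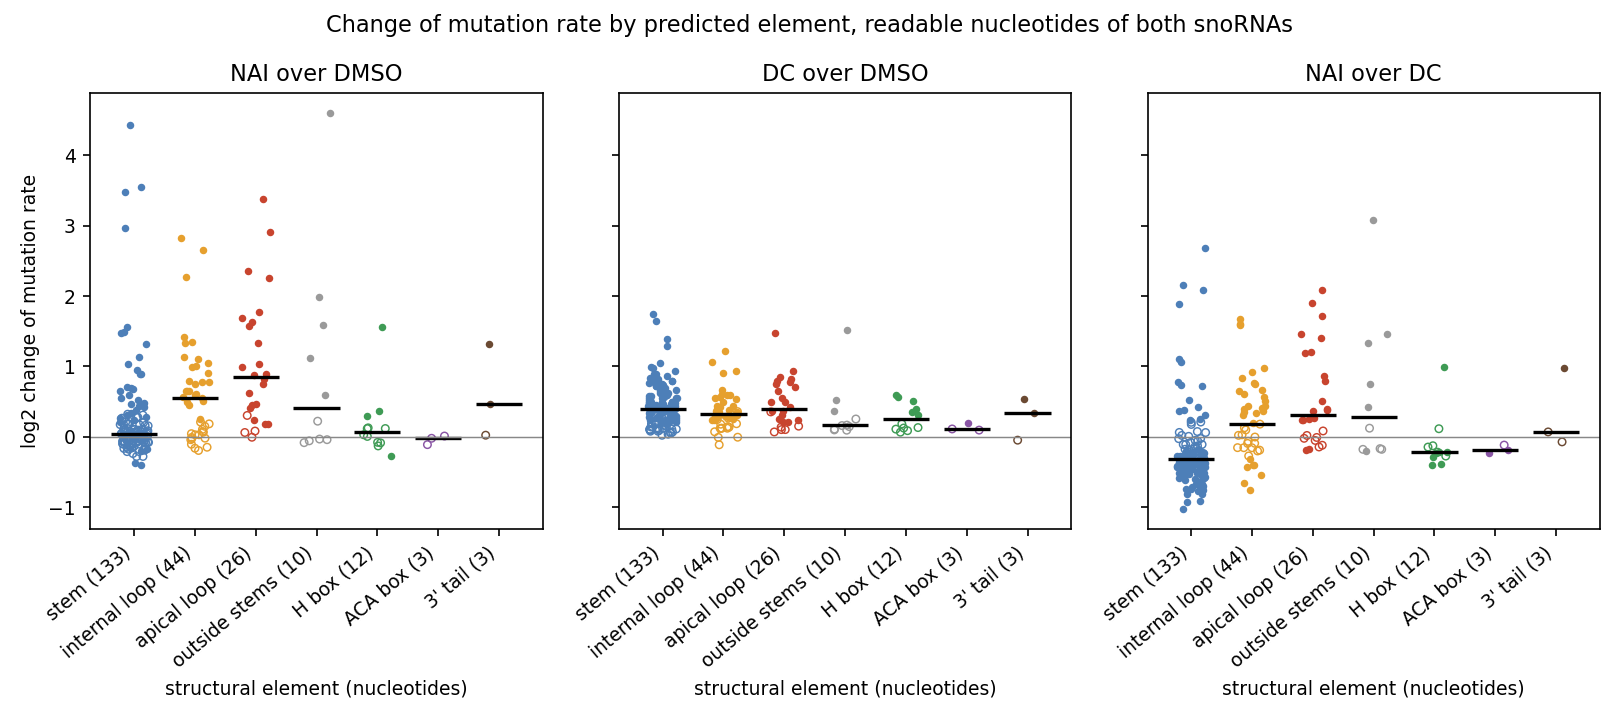
Log2 change of the mutation rate at each readable nucleotide of both snoRNAs by predicted element, for NAI over DMSO, DC over DMSO and NAI over DC; filled points passed the edgeR test, open points did not, and black lines are medians. The NAI over DMSO median is 0.04 in stems and 0.85 in apical loops, and the NAI over DC median is -0.32 in stems and 0.31 in apical loops; TMM scaling lowers the whole NAI over DMSO panel, and turns the calls of the stems there to 20 higher and 60 lower.

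In the 5′ hairpins the strongest rises of readable nucleotides were at G53 and G32 in SNORA5C and at G613 and U576 in SNORA5A. On the 3′ side of the pocket both hairpins carry a stretch that differs between them at U55 and A615, printed here with reactive nucleotides in capitals because its G was the most reactive readable nucleotide of each 5′ hairpin.
SNORA5C C45 to C61: cuggcCcaGauggcugc
SNORA5A C605 to C621: cuggcccaGaaggcugc
G53 of SNORA5C, predicted to pair with C12 in a helix of 2 pairs, had rates of 3.38% and 2.86% in the NAI libraries, 0.269% and 0.295% in DMSO and 0.726% and 0.744% in DC. Its counterpart in SNORA5A, G613, had 1.46% and 1.78%, 0.148% and 0.123%, and 0.453% and 0.416%. At both, NAI lay above DC and DC above DMSO with no overlap. The log2 change of NAI over DMSO was 3.48 (SE 0.092, edgeR adjusted p = 7.91e-14) at G53 and 3.54 (SE 0.13, adjusted p = 6.14e-12) at G613. The A that follows, the other base of that helix strand, was milder: A54 had normalised reactivities of 0.810 and 0.795 and A614 0.327 and 0.460.

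The strand taken here as that of the pocket, the run ccca at 49 to 52 and 609 to 612, was mostly quiet in both snoRNAs. Its medians were 0.0658 and 0.273 in SNORA5C and 0.0838 and 0.109 in SNORA5A. The limits of the pocket come from the predicted fold, and pairing with a target RNA was not examined. The second C of the run was the exception: C50 had normalised reactivities of 1.21 and 0.863 and C610 0.548 and 0.998, and both were called higher with NAI. The opposite pocket strand could be read only in SNORA5A, at 573 to 576, where its median was 1.31 in both replicates. There A573 was at -0.0429 and 0.0098, A574 at 1.79 and 1.59, A575 at 0.824 and 1.04, and U576 at 3.90 and 3.35. The difference between the strands of that pocket was not tested.

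In the apical loop of the SNORA5C 5′ hairpin, nucleotides 29 to 36, 7 of 8 were higher with NAI. G32 had 3.04% and 2.85% with NAI, 0.271% and 0.303% with DMSO and 0.768% and 0.817% in DC, 3.37 over DMSO on the log2 scale (SE 0.082, edgeR adjusted p = 2.89e-14). C30 had 1.53% and 1.67% with NAI, 0.353% and 0.315% with DMSO and 0.604% in both DC libraries, 2.25 over DMSO on the log2 scale (SE 0.088, edgeR adjusted p = 7.96e-12). At both nucleotides the conditions did not overlap. The rest of that loop was lower, with normalised reactivities from 0.142 at A35 to 0.901 at U36. In the loop of SNORA5A, nucleotides 590 to 596, 5 of 7 were higher, led by U590 (2.84 and 2.70), A591 (2.18 and 2.25) and G593 (2.18 and 2.33), and A595 and U596 were near 0.

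The H box of the hinge, which with the ACA box defines the family, was largely unreactive: 11 of its 12 nucleotides in the 2 snoRNAs were under 0.4 in both replicates, with a median of 0.0523 ± 0.075 (SD, n = 2). The stretches from each H box to the end of the first strand of the 3′ hairpin are printed with reactive nucleotides in capitals to show where the quiet box gives way.
SNORA5C A63 to U80: acagcAaGCUccacagcU
SNORA5A A623 to U639: acagaaaCaCugugacU
In SNORA5C the last base of the box, A68, had 2.997% and 3.20% with NAI, 1.08% and 1.01% with DMSO and 1.53% and 1.59% in DC. NAI was the highest and DMSO the lowest, with no overlap, and the log2 change was 1.56 over DMSO (SE 0.066, edgeR adjusted p = 1.82e-11).

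The other H box nucleotides moved little. A63, C64, A65, G66 and C67 of SNORA5C had log2 changes of NAI over DMSO from -0.13 to 0.13, none of them called, and with TMM scaling A63 and G66 turned to -0.20 and -0.28 and C64 and A65 were called lower. In SNORA5A, A623 (0.37, edgeR adjusted p = 0.00079) and A628 (0.30, edgeR adjusted p = 0.0078) were higher and A625 (-0.28, edgeR adjusted p = 0.024) lower. A628 turned to -0.013 with TMM scaling and lost its call without DMSO replicate 2, and A625 lost its call without NAI replicate 2 or DMSO replicate 1. C624, G626 and A627 were not called, at 0.01, 0.12 and -0.08. The matching last base of the box, A628, had normalised reactivities of 0.223 and 0.361, against 1.91 and 1.83 at A68.

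Just past the box each snoRNA had a reactive spot, at a different strength. In SNORA5A, C630 had 6.77% and 7.46% with NAI, 0.317% and 0.260% with DMSO and 0.895% and 0.777% in DC. All NAI values lay above all DC values and these above all DMSO values. This was 24.2-fold over DMSO and 8.46-fold over DC (log2 4.60, SE 0.10, and log2 3.08, SE 0.092; edgeR adjusted p = 1.35e-14 and 9.02e-13). It is flanked by A629 (-0.179 and 0.0398) and A631 (0.292 and 0.156), neither called. C632, the first base of the predicted 3′ stem, had 1.09% and 1.15% with NAI, 0.153% and 0.130% with DMSO and 0.277% and 0.215% in DC, 7.79-fold over DMSO (log2 2.96, SE 0.15, edgeR adjusted p = 1.3e-10). Its predicted partner G688 lies in the unreadable stretch.

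In SNORA5C the spot was spread over G70, C71 and U72. Their normalised reactivities were 2.77 and 2.02, 2.84 and 2.96, and 1.43 and 1.18, and A69 before them was at -0.0721 and 0.0024. C71 had 0.889% and 1.11% with NAI, 0.246% and 0.258% with DMSO and 0.345% and 0.382% in DC, 3.95-fold over DMSO (log2 1.98, SE 0.12, edgeR adjusted p = 1.32e-09). The conditions did not overlap at C71. The stem that starts after it, 73 to 80, was quiet up to its last base: 1 of its 8 nucleotides was higher with NAI, U80, next to the internal loop, at 1.29 and 0.989.

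The upper stem and apical loop of the 3′ hairpins differ in sequence and length between the snoRNAs. They are printed with reactive nucleotides in capitals because the second most reactive nucleotide of the ends, G656, falls here.
SNORA5C C87 to G115: cccugggucAccuACccugggaccugggg
SNORA5A C646 to G672: cccuguuccuGuGUcccaggcucaggg
G656 closes the apical loop of SNORA5A in the predicted fold, paired with C662. It had 6.91% and 6.98% with NAI, 0.300% and 0.358% with DMSO and 1.06% and 1.10% in DC, with no overlap between conditions. It was 21.5-fold over DMSO and 6.42-fold over DC (log2 4.42, SE 0.083, and log2 2.68, SE 0.075; edgeR adjusted p = 2.84e-15 and 8.17e-13). Its predicted partner C662 had normalised reactivities of -0.0443 and 0.113 and was not called. Within the loop, G658 (3.69 and 3.87) and U659 (1.45 and 1.54) were reactive and U657 between them and G656 was not (0.0251 and 0.0916).

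The apical loop of the SNORA5C 3′ hairpin, nucleotides 99 to 104, was higher with NAI at 6 of 6 nucleotides. A100 led with 4.16% and 4.24% with NAI, 0.547% and 0.567% with DMSO and 0.975% and 1.00% in DC, 7.55-fold over DMSO (log2 2.92, SE 0.066, edgeR adjusted p = 1.35e-14). NAI stood above DC and DC above DMSO in both replicates. C101 followed at 1.84 and 1.63. The bulged A96 on the way up had 1.51 and 1.28. The helix below it, C87 to C95 with G107 to G115, was quiet: its 5′ strand had medians of -0.0151 and -0.133. On that strand 0 of 9 nucleotides were higher with NAI by edgeR, as by DESeq2 and at an unadjusted p under 0.05, and C87 was lower. The 3′ strand had medians of 0.149 and 0.0174, and 1 of its 9 nucleotides, G113, was called higher with NAI.

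The internal loops of the 3′ hairpins repeated one feature. U117 in SNORA5C had 2.75% and 2.61% with NAI, 0.462% and 0.378% with DMSO and 0.954% and 0.809% in DC, and U674 in SNORA5A 3.22% and 3.43%, 0.478% and 0.459%, and 1.14% and 1.06%. Both showed NAI above DC and DC above DMSO with no overlap. The log2 changes over DMSO were 2.66 (SE 0.10, edgeR adjusted p = 7.4e-12) and 2.82 (SE 0.076, edgeR adjusted p = 8.05e-14). The A before each was quiet, A116 at -0.091 and 0.138 and A673 at -0.269 and -0.034. Below this loop in SNORA5C a helix of 2 pairs had 1 reactive nucleotide on each strand, A82 and U121. Its medians were 1.06 and 0.916 at 82 and 83 and 1.34 and 1.14 at 120 and 121. The other 2 nucleotides were lower, U83 at 0.659 and 0.433 and G120 at 0.510 and 0.489. The next internal loop, U122 and U123, had medians of 1.53 and 1.38. The strand facing U674, nucleotides 640 to 645, had 5 of 6 nucleotides higher with NAI, led by A641 (1.39 and 1.52) and U642 (1.08 and 1.26).

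The ACA box of SNORA5C, recognised by dyskerin, was unreactive. A132, C133 and A134 had normalised reactivities of -0.0186 and 0.0386, -0.0061 and -0.0268, and -0.149 and -0.0433, and none was called against DMSO by edgeR, by DESeq2 or at an unadjusted p under 0.05. With TMM scaling 2 of the 3 were called lower. In the tail that follows, G135 was equally low at -0.0174 and 0.0695. U136 had 2.27% and 1.89% with NAI, 0.857% and 0.806% with DMSO and 1.05% and 1.06% in DC, and G137 normalised reactivities of 0.343 and 0.427. U136 and G137 were both called higher with NAI. Across the border to the middle of SLERT the next nucleotide, C138, had 0.186 and 0.391, and at the other border C560, the last of the middle, had 2.87 and 2.18 and U561, the first of SNORA5A, 0.687 and 0.602.

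The 10 nucleotides named for their rise with NAI, G53, G32, A100, U117 and C30 in SNORA5C and C630, G656, G613, C632 and U674 in SNORA5A, were called in every alternative fit, with log2 changes from 1.94 to 4.78. The nucleotides named as lower were few and weak. C98 (log2 -0.40, SE 0.15, edgeR adjusted p = 0.04), C87 (-0.37, SE 0.099, adjusted p = 0.0051), G40 (-0.20, SE 0.068, adjusted p = 0.025) and C23 (-0.17, SE 0.066, adjusted p = 0.045) lie in predicted stems of SNORA5C, and A625 in the H box of SNORA5A. None of these 5 was called in every fit, and the largest adjusted p among the fits was 0.338.

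**Figure D3:**
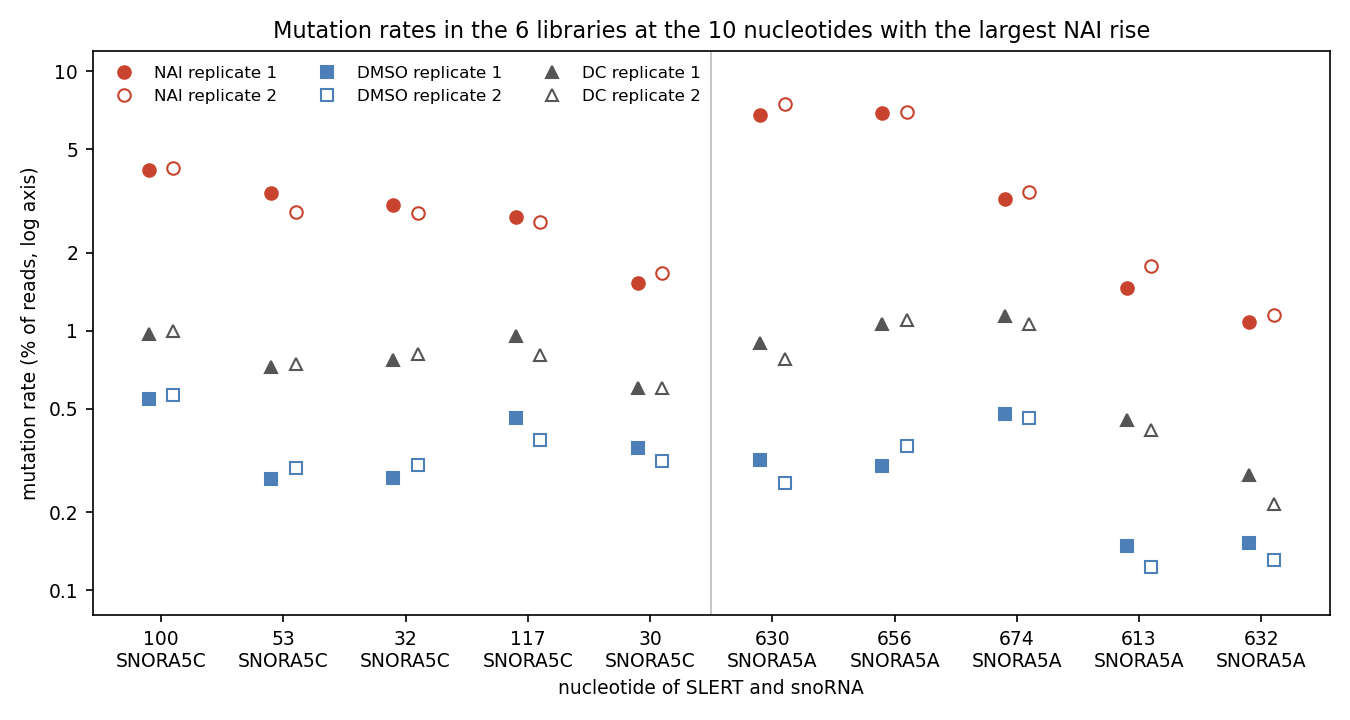
Mutation rate (percent of reads, log axis) in the 6 libraries at the 5 nucleotides of each snoRNA with the largest rise of NAI over DMSO; circles are NAI, squares DMSO and triangles DC, filled for replicate 1 and open for replicate 2. At all 10 nucleotides both NAI values lie above both DC values, and both DC values above both DMSO values.

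DC against DMSO asks where the denatured control differed from DMSO. Whether NAI followed the heating is not given in the sources used here, so a difference cannot be assigned to denaturation alone. In the ends 161 nucleotides were higher in DC and 2 lower (edgeR adjusted p under 0.05), against backgrounds of 61.8% and 2.16% over SLERT. Of the higher ones 157 were readable, and the 2 lower ones lay in the terminal stretch of SNORA5A. Stems and loops both rose: 98 of 133 stem nucleotides were higher, with a median log2 change of 0.40, and 50 of 80 unpaired ones, with a median of 0.35. The median over the readable ends was 0.36. TMM scaling moved it to -0.013 and the counts to 47 higher and 38 lower, with 25 higher and 15 lower in the stems and 17 and 15 in the unpaired nucleotides.

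The largest rises in DC fell partly on the nucleotides that NAI marked in cells. They were G32 (log2 1.48), G53 (1.39), U117 (1.06), C74 (1.05) and G41 (0.99) in SNORA5C and G656 (1.74), G613 (1.65), C630 (1.52), G586 (1.29) and U674 (1.23) in SNORA5A. All 10 were called in every alternative fit, with a largest edgeR adjusted p of 0.0028. Both comparisons share the DMSO libraries. C74 and G41 differed from the others: C74 had 0.190% and 0.219% with NAI, 0.206% and 0.161% with DMSO and 0.397% and 0.370% in DC, so that NAI and DMSO overlapped and DC stood above both. G41 had 0.252% and 0.258% with NAI, 0.242% and 0.244% with DMSO and 0.470% and 0.492% in DC. Neither was called between NAI and DMSO, and both lie inside predicted stems. In the boxes, A63, G66, C67 and A68 of SNORA5C and A623 and G626 of SNORA5A were higher in DC, with log2 changes from 0.32 to 0.59. With TMM scaling A63 and G66 turned to -0.02 and -0.06, and A65, A625 and A627, not called in the main fit, turned to -0.25, -0.26 and -0.31. G66 lost its call without DC replicate 1 or either DMSO replicate, C67 without either DC replicate or DMSO replicate 2, and G626 without DMSO replicate 1. A132 of the ACA box was also higher, by 0.20.

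NAI against DC sets the signal in cells beside that of the denatured RNA, and here most stems lay on one side and most loops on the other. In the ends 65 nucleotides were higher with NAI than in DC and 102 lower (edgeR adjusted p under 0.05), against backgrounds of 27.0% and 31.3% over SLERT. Of these calls 62 higher and 100 lower were readable. Of the stem nucleotides 82 of 133 were lower with NAI and 16 higher, with a median log2 change of -0.32. Of the unpaired nucleotides 44 of 80 were higher and 10 lower, with a median of 0.26. TMM scaling gave 17 higher and 68 lower in the stems and 44 and 7 in the unpaired nucleotides. Without DC replicate 1 the lower calls were 56 in the ends, 50 in the stems and 4 in the unpaired nucleotides. The H box had 6 of 12 nucleotides lower than DC and 1 higher, A68, and the ACA box 2 of 3 lower. Of these 6, A63, A65, G66, A623 and G626 lost their call without DC replicate 1, and A625 did not.

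The nucleotides named for standing above DC were G53, A100, G32, U117 and C71 in SNORA5C, 2.74-fold to 4.26-fold, and C630, G656, C632, G613 and G658 in SNORA5A, 3.28-fold to 8.46-fold. Those named for lying below DC were C74, G41, A75, G131 and C73 in SNORA5C, 0.529-fold to 0.611-fold, and C605, G650, C563, C654 and G616 in SNORA5A, 0.491-fold to 0.591-fold. All 20 were called in every alternative fit. The latter 10 all lie in predicted stems, and C73 with G131 is the closing pair of the 3′ hairpin of SNORA5C. C605, the lowest of all, had 0.234% and 0.190% with NAI, 0.250% and 0.225% with DMSO and 0.441% and 0.429% in DC. NAI and DMSO overlapped there and DC stood above both, and none of the 10 was called between NAI and DMSO.

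As paralogs, the 2 snoRNAs aligned at 133 nucleotides, of which 94 (70.7%) were identical. At the 93 aligned pairs readable in both, normalised reactivity correlated with Pearson's r = 0.471 in replicate 1 and 0.515 in replicate 2 (Spearman's rho = 0.540 and 0.471). Both members of a pair come from the same libraries, and the values describe this alignment. Pairs of the same base (65) had r = 0.588 and 0.619, and pairs of different bases (28) had 0.250 and 0.297. Among the 93 pairs, 39 nucleotides of SNORA5C and 32 of SNORA5A were higher with NAI than with DMSO. In 23 pairs both were, which is 59.0% of the SNORA5C calls and 71.9% of the SNORA5A calls.

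Several reactive nucleotides stood at the same place in both. G53 (6.54 and 4.59) faced G613 (4.42 and 5.31), and U117 (3.66 and 3.68) faced U674 (3.67 and 3.74). A82 (1.47 and 1.40) faced A641 (1.39 and 1.52), and U80 (1.29 and 0.989) faced U639 (0.898 and 0.873). The spot after the H box was shared in place in the alignment but not in level, with C71 at 2.84 and 2.96 and C630 at 11.0 and 12.3. That place rests on an alignment gap at C67, and counted from the end of the box C630 faces G70. The apical loops of the 5′ hairpins shared G32 (5.50 and 4.16) and G593 (2.18 and 2.33), and those of the 3′ hairpins A100 (5.65 and 4.88) opposite G658 (3.69 and 3.87).

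Other reactive nucleotides had a quiet counterpart. C632 (5.13 and 6.32) faced C73 (0.258 and -0.0289), each the first base of the predicted 3′ stem. G656 faced C98 (-0.200 and -0.391), which is called lower with NAI than with DMSO. In the opposite sense, A96 (1.51 and 1.28) faced C654 (0.0346 and -0.0628), and A68 faced A627 (-0.133 and -0.0076) in the alignment, or A628 by its place in the box. G70 (2.77 and 2.02) faced A629 (-0.179 and 0.0398) only through the alignment gap at C67. Counted from the end of the box, G70 faces the reactive C630, and A629 faces A69 (-0.0721 and 0.0024), also quiet. The differences at the aligned pairs named here were larger than the differences between replicates. They were not tested, since both snoRNAs come from the same libraries.

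**Figure D4:**
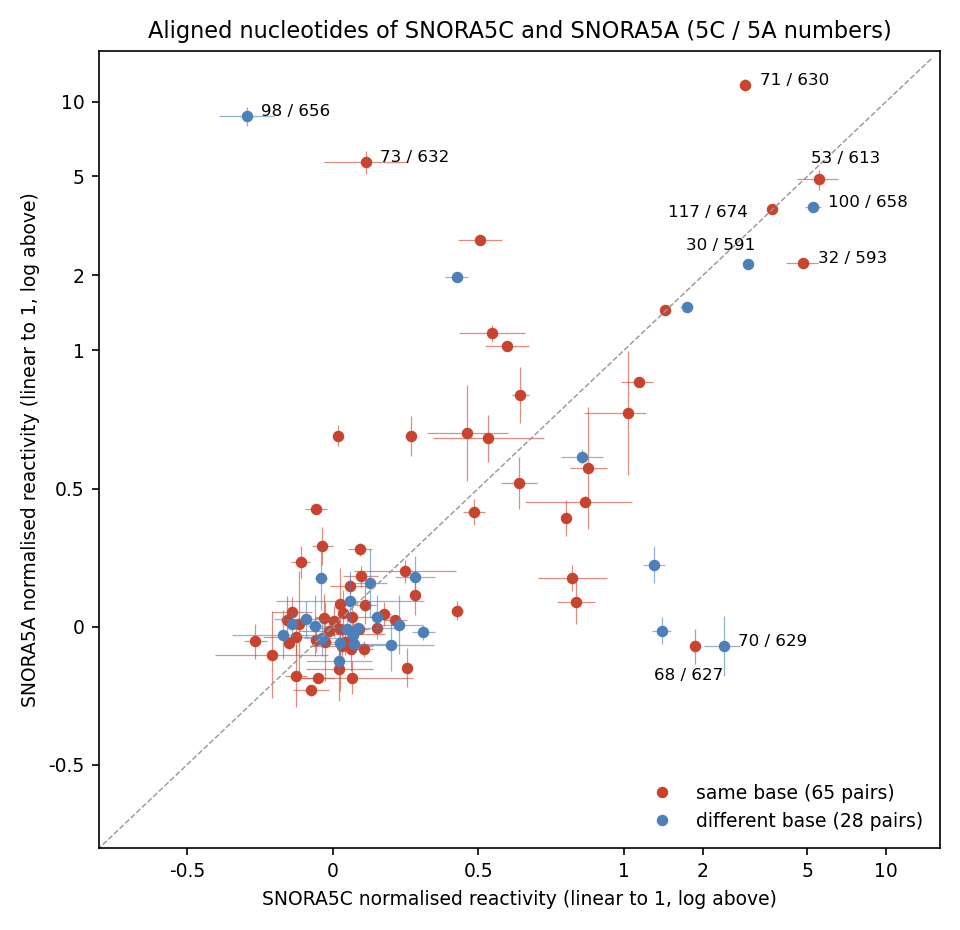
Normalised reactivity of SNORA5C (x axis) against SNORA5A (y axis) at the 93 aligned nucleotides readable in both, linear up to 1 and logarithmic above; points are means of 2 replicates, thin lines join the replicates, red marks the same base and blue a different one, and the dashed line is equality. U117 with U674 lies on the line at 3.66 to 3.74, and C98 with G656 and C73 with C632 lie far above it.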

How the data were processed

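SHAPE-MaP tables of SLERT were used, 1 per replicate, each with the NAI, DMSO and DC columns of that replicate; 5S ribosomal RNA was not used here. The sample titles give the groups. Since treatment texts and titles name different conditions, the modified, untreated and denatured columns of the deposited tables set the condition of every value. Per the file headers, mutations and effective depth are read counts at each nucleotide. The rate the authors deposited, a fraction printed here in percent, equalled mutations over effective depth to within 5.0e-07. The deposited normalised reactivity is a score, equal to the NAI rate minus the DMSO rate over the DC rate, times 1.52 in replicate 1 and 1.33 in replicate 2. The submitters' processing notes name bcl2fastq 2.17.1.14 for sorting reads; aligner, mutation counter and build: not given in the sources used here. All per-sample columns of these tables were mapped to a sample.

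Counts were tested with edgeR 4.0.16 (R 4.3.3), quasi-likelihood, with the logarithm of effective depth as offset, all 6 libraries in 1 fit over the 693 nucleotides where every library had an effective depth of 1000 or more. All tests were two-sided, and p-values were adjusted (Benjamini-Hochberg) over the 693, with a threshold of 0.05; SE is the size of the log2 change divided by the root of F. The script was tested on simulated data. Nothing says that replicates were separate cultures, so the spread behind the p-values may be technical. The floor of 3 mutations covers counting error only, and PCR copies of a molecule are not independent. Same-numbered libraries did not deviate together in every pair (r = 0.0047 for NAI with DMSO, -0.058 for NAI with DC and 0.331 for DMSO with DC over 654 nucleotides), so the replicate number was treated as a name.

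The H box was the ANANNA match nearest the centre of each snoRNA and the ACA box the ACA nearest its 3′ end. Each hairpin was folded alone at 37 °C with RNAfold 2.7.2 (ViennaRNA) and no reactivities. The snoRNAs were aligned with Biopython 1.88 (match 1, mismatch -1, gap opening -3, gap extension -1). Named nucleotides were, per snoRNA and comparison, the 5 readable calls with the largest and the 5 with the smallest log2 change that moved the same way in both replicates, and all of the H boxes; others were named after their values were seen. The members and lists were chosen with earlier results of these data known. Alternatives were TMM scaling, DESeq2 1.42.0, a minimum of 10 mutations, the replicate number as a block, the fit without the terminal stretches, and each library left out.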

Additional observations from a re-analysis of the deposited data

How the results depend on the processing

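Each fit was repeated with TMM scaling, DESeq2, a minimum of 10 mutations, the replicate block, without the terminal stretches and without each library in turn. TMM scaling gave 88 nucleotides of the ends lower with NAI than with DMSO, and 47 higher and 38 lower in DC than with DMSO. The 2 nucleotides lower in DC were 0 with DESeq2, 1 with a minimum of 10 mutations, 1 with the replicate block and 0 without the terminal stretches. Leaving out 1 library gave 1 to 9 lower calls of NAI against DMSO, 0 to 2 of DC against DMSO and 56 to 93 of NAI against DC. Sign changes were listed only for named nucleotides called in the main or the TMM fit. Among these, TMM scaling turned the log2 change of NAI over DMSO at A63 (-0.20), G66 (-0.28) and A628 (-0.013). It turned that of DC over DMSO at A63 (-0.022), A65 (-0.25), G66 (-0.058), A625 (-0.26) and A627 (-0.31). TMM scaling centres the changes by construction, and which sign holds at these nucleotides was not tested.

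Taken as a rate difference of NAI minus DMSO, the excess of unpaired over stem nucleotides was 0.291 percentage points in SNORA5C and 0.247 in SNORA5A, a change of unit from the normalised 0.598 and 0.554. The fold of the whole snoRNA has the same pairs, so it left both unchanged by construction and is no separate check. The alternative H box was not run, since SNORA5C has 1 ANANNA match and the next in SNORA5A covers its ACA box.

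With the replicate block, NAI against DMSO gave 98 higher and 6 lower, DC against DMSO 166 and 1, and NAI against DC 66 and 107, and all 80 calls or non-calls of named nucleotides were the same. Of the other named results, those under DESeq2 had 1 weaker and 79 the same. The terminal stretches had a median effective depth of 177942 to 976044 over the libraries, and why they carried almost no mutations was not tested.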
